A study of Mus musculus with 4 samples.

Results

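Rasd2, Ppp1r1b, Rgs9, Pde10a, Pde1b, Adcy5 and Gnal are genes of cAMP signalling in the striatum, and they were read in every nucleus of 4 single-nucleus RNA-seq libraries of mouse brain. They are 7 of the 31053 genes counted. They were selected by name from earlier results of the same libraries, as genes of striatal projection neurons (SPNs), so a higher level in these neurons is what chose them and is given here as a description. The questions put to the data were how far each gene was concentrated in SPNs against other neurons, where else it was found, and how its level in SPNs compared between region labels and between viruses. Positions, known partners, other cell classes and the remaining genes of the pathway were not used in the selection.

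The study delivered adeno-associated virus (AAV) serotype AAV9 into the cisterna magna of male C57BL/6J mice. AAV-VEGF-C encoded the full-length mouse form of the vascular endothelial growth factor VEGF-C, and AAV-CTRL encoded a soluble VEGF receptor 3 fragment joined to immunoglobulin that does not bind the growth factor, so both groups carried a virus with a secreted product and no untreated group was analysed here. Tissue labelled cortical or striatal from 5 mice aged 8 weeks was pooled for each virus, which gave 4 libraries, 1 per group, with the same mice behind both region labels of a virus. Values are given throughout with the libraries labelled cortex first, then those labelled striatum, and with AAV-CTRL before AAV-VEGF-C under each label. With 1 library per group no difference has a replicate check, no test was run and no p-value is given. Parentheses hold 95% intervals that cover counting error, not the spread between nuclei, mice, dissections or preparations.

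SPNs are the GABAergic principal neurons of the striatum. In those of the direct pathway the dopamine D1 receptor, and in those of the indirect pathway the adenosine receptor encoded by Adora2a, act through the olfactory-type stimulatory G protein alpha subunit encoded by Gnal on the adenylyl cyclase encoded by Adcy5, while the dopamine D2 receptor lowers cAMP through inhibitory G proteins. Pde10a and Pde1b encode phosphodiesterases that break cyclic nucleotides down, the latter under calcium and calmodulin. Protein kinase A phosphorylates the product of Ppp1r1b, the dopamine- and cAMP-regulated phosphoprotein, which then inhibits protein phosphatase 1. Rgs9 encodes a regulator of G protein signalling that speeds the shut-off of inhibitory alpha subunits and is stabilised by the G protein subunit encoded by Gnb5. Rasd2 encodes Rhes, a small Ras-like G protein enriched in the striatum that is known to dampen this cascade.

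The genes lie apart in the genome and differ widely in length. In the GENCODE M21 annotation of GRCm38, the build behind the mm10 label of the submitters' processing notes, Rasd2 (ENSMUSG00000034472) spans chr8:75213944-75224113 on the plus strand, Ppp1r1b (ENSMUSG00000061718) chr11:98348404-98357796 on the plus strand and Rgs9 (ENSMUSG00000020599) chr11:109225355-109298129 on the minus strand. Pde10a (ENSMUSG00000023868) spans chr17:8525372-8986648, Pde1b (ENSMUSG00000022489) chr15:103503034-103530052 and Adcy5 (ENSMUSG00000022840) chr16:35154877-35305738, all on the plus strand. The spans are 10.2 kb for Rasd2, 9.39 kb for Ppp1r1b, 72.8 kb for Rgs9, 461 kb for Pde10a, 27.0 kb for Pde1b, 151 kb for Adcy5 and 139 kb for Gnal (ENSMUSG00000024524). Rasd2 and Ppp1r1b are thus the shortest of the 7. Within their spans, Pde10a is overlapped by the counted gene Gm17087 on the opposite strand, and Gnal by Chmp1b on the same strand and Mppe1 on the opposite strand. Counts there could depend on how reads in an overlap were assigned, which was not examined.

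The sequence before the start site was read because these genes are high in the same neurons. RefSeq windows of 300 bases (GRCm38.p6, 250 before to 50 after the start site) were found for 5 of the 7 genes, 8 windows in all. The windows of Rasd2, Rgs9 and Adcy5 are shown 5′ to 3′ on the strand of the gene, since Rasd2 is the gene that differed between viruses and the other pair had the highest ratios of SPNs over other neurons in the libraries labelled cortex. Capitals mark the GC box GGGCGG or its reverse complement CCGCCC.
Rasd2, chr8:75213694-75213993, plus strand: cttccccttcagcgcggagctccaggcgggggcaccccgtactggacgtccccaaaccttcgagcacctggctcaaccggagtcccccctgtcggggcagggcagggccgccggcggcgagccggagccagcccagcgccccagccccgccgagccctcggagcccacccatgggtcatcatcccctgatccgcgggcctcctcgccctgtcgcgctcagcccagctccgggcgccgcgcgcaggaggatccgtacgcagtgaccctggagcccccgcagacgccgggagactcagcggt
Rgs9, chr11:109298132-109298431, minus strand: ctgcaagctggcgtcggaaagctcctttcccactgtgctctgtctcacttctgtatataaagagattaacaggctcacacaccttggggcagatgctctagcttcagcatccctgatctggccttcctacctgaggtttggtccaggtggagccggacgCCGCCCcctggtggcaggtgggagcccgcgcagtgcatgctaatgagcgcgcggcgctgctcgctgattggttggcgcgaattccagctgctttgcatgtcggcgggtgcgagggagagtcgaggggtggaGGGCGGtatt
Adcy5, chr16:35154614-35154913, plus strand: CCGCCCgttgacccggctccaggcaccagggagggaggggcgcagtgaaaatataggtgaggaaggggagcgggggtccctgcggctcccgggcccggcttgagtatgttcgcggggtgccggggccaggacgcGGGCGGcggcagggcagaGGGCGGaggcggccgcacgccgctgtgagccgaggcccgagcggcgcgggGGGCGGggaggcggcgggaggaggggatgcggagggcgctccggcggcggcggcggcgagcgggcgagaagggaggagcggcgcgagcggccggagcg
The Rasd2 window held 33 CpG dinucleotides and 74.7% G or C, the Rgs9 window 19 and 60.3%, and the Adcy5 window 44 and 79.0%, against medians of 7 and 52.7% over 32851 windows of the genome. GC boxes numbered 4 in Adcy5, 2 in Rgs9 and 0 in Rasd2, and 35.7% of all windows held at least 1. The letters TATAAA, on either strand, stood in the Rgs9 window and in a window of Pde1b, as in 13.6% of windows. Neither the full cAMP response element TGACGTCA, found on either strand in 1.79% of windows, nor the shorter TGACG, which the full element contains and 20.8% of windows held, occurred in any of the 8 windows. The letters GCGGGGGCG of the EGR1 site, in 2.91% of windows on either strand, were also not found in them. A match or its lack describes these letters in these windows and says nothing of binding.

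SPNs were identified from clusters made and named without the 7 genes. Of 72640 nuclei kept after doublets were left out, 3711 fell in 2 clusters called SPN-like, which raised 13 and 9 of 14 SPN markers fixed for naming, and 36212 fell in other neuronal clusters. SPN-like nuclei numbered 1295, 1609, 463 and 344, or 13.3% (12.6 to 14.0), 13.9% (13.3 to 14.6), 4.50% (4.11 to 4.92) and 4.12% (3.70 to 4.57) of neuronal nuclei. The libraries labelled striatum therefore held fewer of the neurons that define the striatum, which goes against the region labels. Excitatory neuron-like nuclei, counted among other neurons, numbered 4105, 4892, 216 and 63, so they too were fewer under the striatum label. Libraries are called by their labels only. The median depth of SPN-like nuclei was 4371, 4547, 4273 and 5319 UMIs, against 4380, 4527, 3858 and 4623 in other neurons. Libraries shared 76 to 118 cell barcodes in each pair, at most 0.658% of a library.

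The dopamine receptor genes Drd1 and Drd2 were among the naming markers, and did not by themselves pick the class out. At least 1 UMI of Drd1 or Drd2 was seen in 62.3%, 71.2%, 55.7% and 62.8% of SPN-like nuclei. The share was 9.75%, 10.7%, 7.95% and 9.72% in other neurons, and 5.03%, 7.28%, 2.77% and 3.23% in oligodendrocyte-like nuclei, which should lack both receptors and had median depths of 1605, 1609, 1659 and 2021 UMIs. Because other neurons were so many more, 3443 of the 5869 neuronal nuclei with a Drd1 or Drd2 UMI, or 58.7%, lay outside the SPN-like clusters. With neurons divided by those UMIs alone, the median ratio over the 7 genes dropped to 1.63, 1.76, 0.95 and 0.90 on the log2 scale, from 2.50, 2.59, 2.24 and 2.32 by clusters. A cluster led by Drd3, of 229 kept nuclei, met too few SPN markers and was counted among other neurons.

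Every gene of the set was higher in SPN-like nuclei than in other neurons in each library, by 2.52-fold to 24.4-fold. All 7 were at least 2-fold higher in all 4 libraries, as were 283 of the 14869 genes with at least 50 UMIs in each comparison, or 1.90%. Nothing is read from this count, since the genes were chosen for it. Over all genes the median log2 ratio was -0.09, -0.10, -0.21 and -0.20. Levels below are UMIs per 1000000 UMIs of the class (CPM), and were compared between classes and libraries but not between genes, since 3′ counts from nuclei also depend on the length of a gene.

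**Figure D1:**
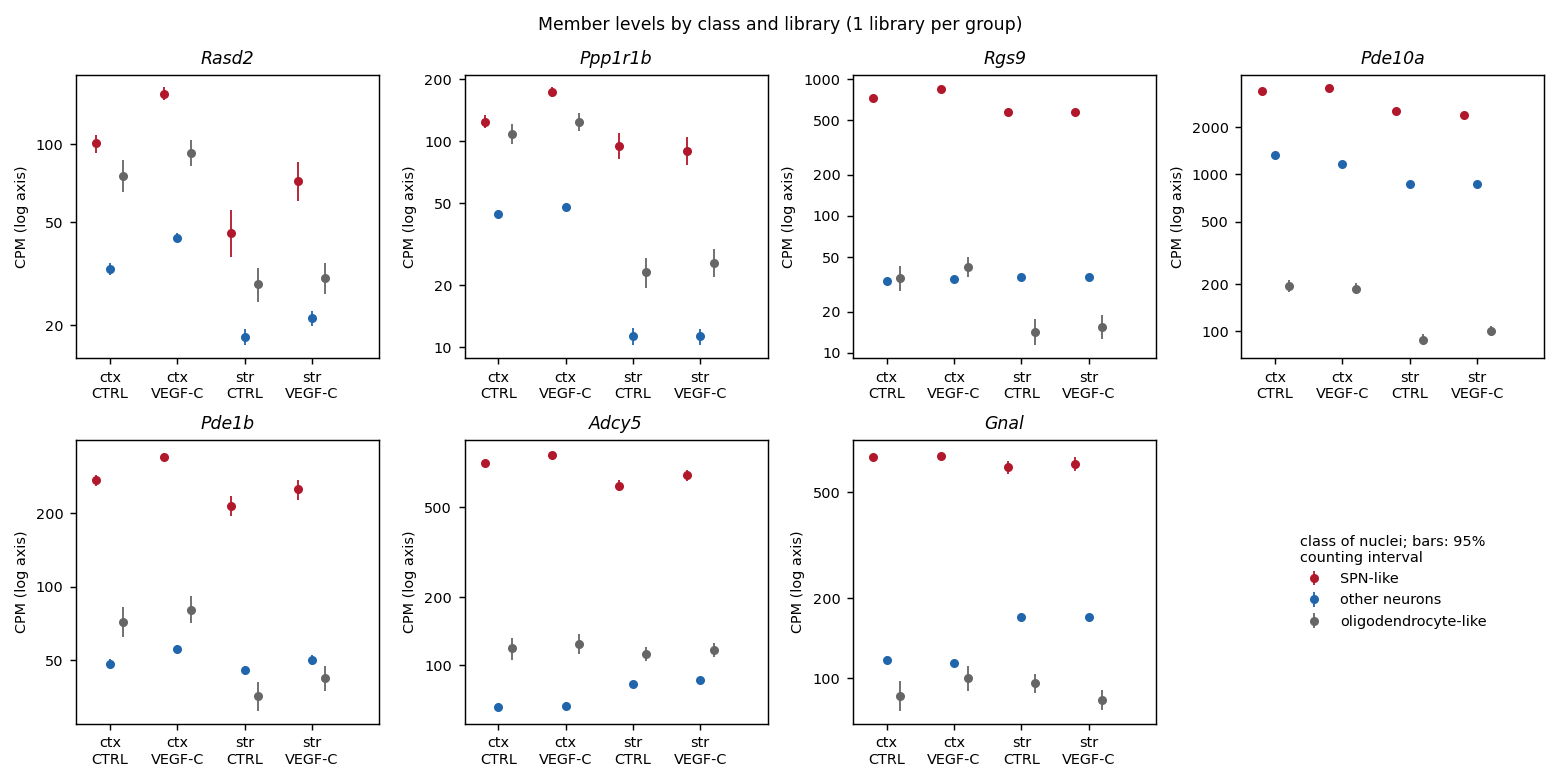
Level of each gene (CPM, log axis) in SPN-like nuclei, other neurons and oligodendrocyte-like nuclei of the 4 libraries, with points for the summed UMIs of 1 library and bars for 95% counting intervals. Rgs9 stood at 572 to 849 CPM in SPN-like nuclei and at 33.2 to 36.0 in other neurons, while Rasd2 and Ppp1r1b in other neurons lay below their level in oligodendrocyte-like nuclei.

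SPN-like nuclei held Rasd2 at levels of 101 (92.5 to 109), 157 (148 to 166), 45.4 (36.6 to 55.6) and 72.1 (60.3 to 85.5) CPM. It was highest in cortex AAV-VEGF-C and lowest in striatum AAV-CTRL, with none of the 4 intervals overlapping. Other neurons held 32.9, 43.6, 18.0 and 21.3 CPM. The ratio was 3.05-fold, 3.60-fold, 2.52-fold and 3.39-fold, or 1.61 (1.47 to 1.75), 1.85 (1.75 to 1.95), 1.34 (1.01 to 1.65) and 1.76 (1.49 to 2.03) on the log2 scale. These came from 575, 1183, 93 and 131 UMIs in SPN-like nuclei, so the libraries labelled striatum gave the least precise values.

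The G protein and cyclase genes were steadier between libraries. SPN-like nuclei held Gnal at levels of 677 (656 to 699), 685 (666 to 704), 622 (588 to 657) and 638 (602 to 676) CPM, and other neurons 117, 114, 170 and 170 CPM. Its ratio was 5.78-fold and 6.01-fold under the cortex label and 3.65-fold and 3.75-fold under the striatum label, where other neurons held more of it. The mix of other neurons also differed between labels, with few excitatory neuron-like nuclei under the striatum label. Over excitatory neuron-like nuclei alone, the log2 ratio of Gnal was 2.91, 2.90, 2.58 (2.33 to 2.84) and 3.26 (2.76 to 3.82). It was thus not lower under the striatum label in AAV-VEGF-C libraries. For Adcy5 the levels were 789 (766 to 812), 852 (831 to 873), 624 (590 to 659) and 693 (655 to 733) CPM, against 65.4, 66.3, 82.3 and 85.7 in other neurons. Its log2 ratio was 3.59, 3.68, 2.92 and 3.02, again lower under the striatum label, and over excitatory neuron-like nuclei 3.89, 3.92, 3.50 and 3.34.

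The phosphodiesterase genes differed in how far they were shared with other neurons. SPN-like nuclei held Pde10a at levels of 3387 (3339 to 3435), 3537 (3494 to 3579), 2515 (2447 to 2584) and 2392 (2322 to 2464) CPM, and other neurons still 1325, 1166, 874 and 863 CPM. Its ratio was 2.56-fold, 3.03-fold, 2.88-fold and 2.77-fold, the lowest of the 7 genes in 3 of 4 libraries. Pde1b had levels of 274 (260 to 288), 342 (329 to 355), 215 (195 to 236) and 251 (228 to 275) CPM in them, against 48.4, 55.4, 45.4 and 50.2. Its ratio was 5.66-fold, 6.17-fold, 4.73-fold and 5.00-fold.

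SPN-like nuclei held Ppp1r1b at levels of 125 (116 to 135), 173 (164 to 183), 95.2 (82.3 to 110) and 90.2 (77.0 to 105) CPM. Other neurons held 44.6, 48.2, 11.3 and 11.3 CPM, and so fell away more sharply between region labels than SPN-like nuclei did. The log2 ratio was therefore larger under the striatum label, at 3.07 (2.83 to 3.32) and 3.00 (2.74 to 3.26), than under the cortex label, at 1.49 (1.36 to 1.62) and 1.84 (1.74 to 1.94). Over excitatory neuron-like nuclei alone the log2 ratio of Ppp1r1b was 1.78, 2.11, 3.58 and 2.86. Rgs9 was the most concentrated of the 7 in every library. SPN-like nuclei held Rgs9 at levels of 733 (711 to 755), 849 (828 to 870), 576 (544 to 610) and 572 (537 to 608) CPM against 33.2, 34.8, 36.0 and 35.8 in other neurons, a ratio of 22.1-fold, 24.4-fold, 16.0-fold and 16.0-fold. Between 0.0404% and 0.128% of the genes compared in a library had a higher ratio than Rgs9.

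**Figure D2:**
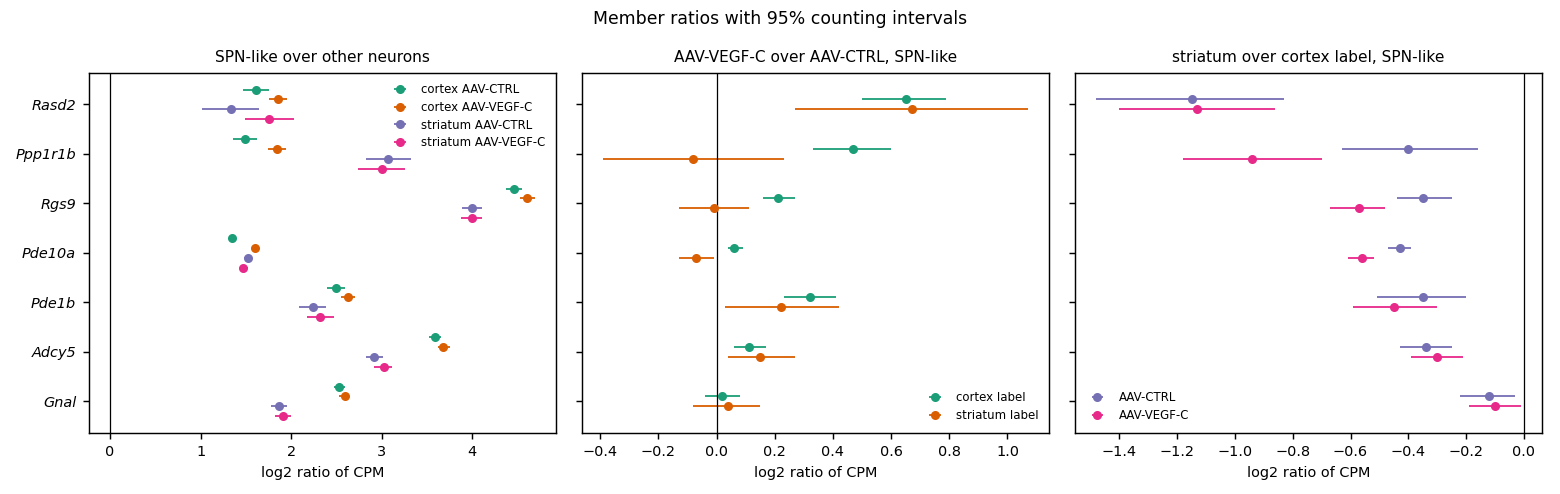
Log2 ratios of CPM with 95% counting intervals for SPN-like over other neurons in each library (left), AAV-VEGF-C over AAV-CTRL in SPN-like nuclei (middle) and striatum over cortex label in SPN-like nuclei (right), with the line at 0 marking no difference. Rasd2 lies at 0.65 and 0.67 in the middle panel and at -1.15 and -1.13 in the right panel, the farthest from 0 of the 7 genes in those panels.

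The share of nuclei with a Rasd2 UMI was 33.8%, 47.0%, 17.5% and 29.4% in SPN-like nuclei, 13.9%, 18.7%, 7.36% and 9.97% in other neurons and 11.7%, 13.5%, 4.74% and 5.95% in oligodendrocyte-like nuclei, at the median depths given above. After each nucleus was thinned to 1000 UMIs the share in SPN-like nuclei was 9.44%, 15.1%, 4.98% and 6.98%. Rgs9 was seen in 82.0%, 88.2%, 70.2% and 74.4% of SPN-like nuclei, 12.9%, 13.8%, 12.4% and 14.8% of other neurons and 5.45%, 6.65%, 2.37% and 3.04% of oligodendrocyte-like nuclei. Such shares, like levels, also depend on the length of a gene, so Rgs9 and Rasd2 are not ranked by them.

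Set against oligodendrocyte-like nuclei, which are not known for this signalling, the genes fell into groups. Rasd2 was at 75.7, 92.5, 28.8 and 30.4 CPM there and Ppp1r1b at 109, 125, 23.1 and 25.8, both above other neurons in all 4 libraries. This order holds for CPM. In UMIs per nucleus, which follow depth, Rasd2 was at 0.154, 0.210, 0.0766 and 0.108 in other neurons, above the 0.125, 0.152, 0.0500 and 0.0630 of oligodendrocyte-like nuclei. The log2 ratio of SPN-like over oligodendrocyte-like nuclei was 0.41 (0.18 to 0.65), 0.77 (0.58 to 0.96), 0.65 (0.28 to 1.03) and 1.25 (0.92 to 1.57) for Rasd2, above 0 in every library. For Ppp1r1b it was 0.20 (0.00 to 0.40), 0.47 (0.31 to 0.64), 2.04 (1.72 to 2.37) and 1.81 (1.49 to 2.13). Pde10a, Adcy5, Gnal, Pde1b and Rgs9 gave 1.93 to 5.34. The lowest of these was Pde1b under the cortex label, at 1.93 and 2.08, and Adcy5 under the striatum label, at 2.47 and 2.57, where Pde1b was at 2.59 and 2.58 with overlapping intervals. Adcy5 was also lower in other neurons than in oligodendrocyte-like nuclei, with log2 ratios between -0.90 and -0.45.

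Subtraction of the oligodendrocyte-like UMIs per nucleus, library by library, raised each ratio. The same amount per nucleus is taken from both classes. A rise was thus fixed in advance wherever SPN-like nuclei held more UMIs per nucleus, and only its size is described. The log2 ratio of SPN-like over other neurons became 3.56, 3.38, 2.45 and 2.77 for Rasd2 and 3.82, 4.55, 5.50 and 6.79 for Ppp1r1b, the genes with the highest oligodendrocyte-like level relative to other neurons in each library. It became 5.11, 5.37, 4.24 and 4.26 for Rgs9 and moved little for Pde10a, to 1.40, 1.66, 1.56 and 1.52. Over the 7 genes, Spearman's rho between span and the ratio of SPN-like over oligodendrocyte-like nuclei was 0.75, 0.79, 0.61 and 0.61, and between span and the ratio over other neurons 0.14, 0.07, -0.18 and -0.18. These describe 7 genes of the same libraries, and the part of length in the ratios was not tested.

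Over all 22 classes with the 4 libraries summed, SPN-like nuclei led for 6 of the 7 genes. Summed over the libraries, Rasd2 was at 116 (111 to 121) CPM in SPN-like nuclei and next at 92.7 (87.1 to 98.6) in the 2 low-depth neuronal clusters. Microglia-like (70.6, 62.0 to 80.1) and macrophage-like nuclei (68.9, 51.0 to 91.1) followed, with overlapping intervals. Ppp1r1b was at 139 (133 to 145) in SPN-like and 136 (116 to 158) in choroid plexus-like nuclei, which did not differ beyond counting error. Rgs9 dropped from 748 (735 to 761) to 54.6 (50.3 to 59.2) in the low-depth neurons, which were next. For Adcy5 the second class was fibroblast-like, at 192 (179 to 206) against 787 (774 to 800) CPM.

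Gnal was the exception. Olfactory sensory neuron-like nuclei, in which the same alpha subunit couples odorant receptors to a cyclase, held 1799 (1688 to 1916) CPM against 670 (658 to 682) in SPN-like nuclei. Of those 263 nuclei, 239 came from striatum AAV-CTRL. Pde10a was broad among neurons, at 3243 (3216 to 3270) CPM in SPN-like, 1733 (1625 to 1846) in cerebellar granule neuron-like and 1434 (1424 to 1445) in excitatory neuron-like nuclei. Pde1b was at 294 (286 to 302) in SPN-like nuclei and next at 105 (99.4 to 112) in the low-depth neurons.

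**Figure D3:**
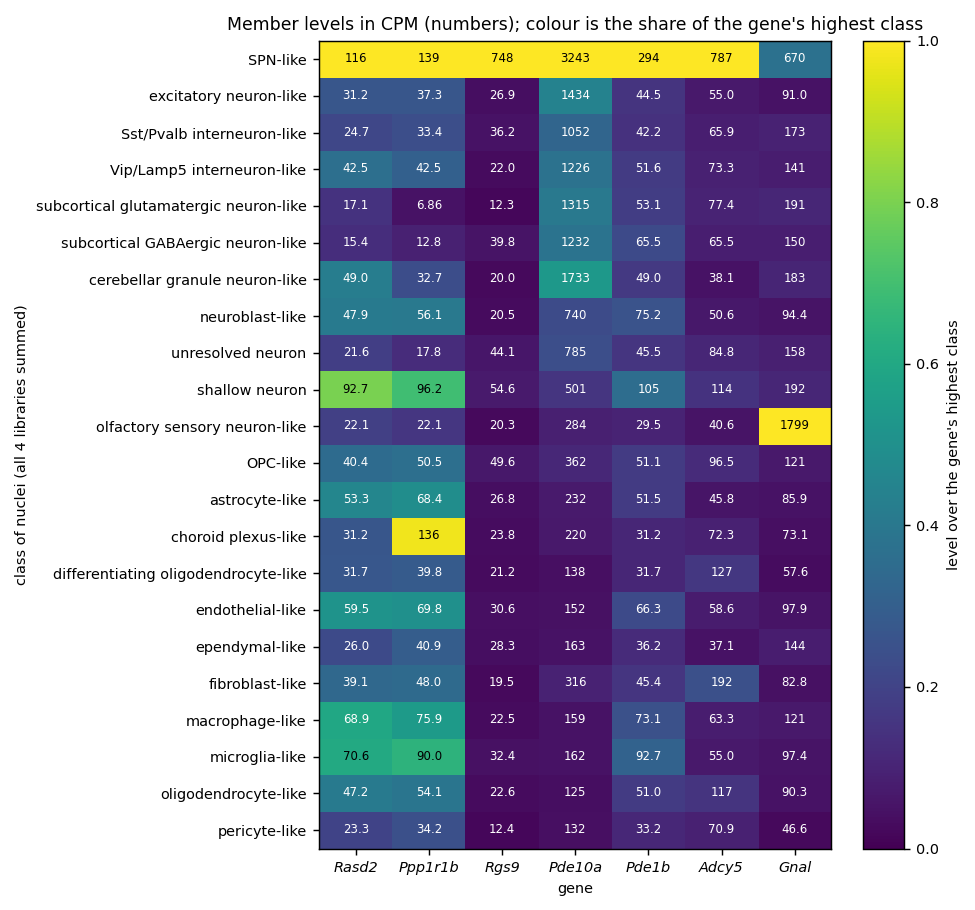
Level of each gene (CPM, printed in the cells) by class of nuclei over all 4 libraries, with colour for the level over that of the highest class of the gene. With the 4 libraries summed, SPN-like nuclei hold the highest class value for all genes but Gnal, which reached 1799 CPM in olfactory sensory neuron-like nuclei. For Rasd2 and Ppp1r1b this did not hold in each library.

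Because SPN-like nuclei were a small part of each library, most UMIs of several of these genes came from elsewhere. SPN-like nuclei held 9.86%, 10.7%, 3.13% and 2.96% of all UMIs. They held 70.6%, 73.8%, 38.3% and 37.0% of the Rgs9 UMIs and 55.3%, 58.8%, 20.0% and 19.6% of the Adcy5 UMIs. For Rasd2 the share was 21.5%, 26.3%, 6.71% and 8.61%, and for Ppp1r1b 19.5%, 24.5%, 15.8% and 14.6%. A total of Rasd2 or Ppp1r1b over a whole library is thus mainly a total over nuclei other than SPN-like ones.

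**Figure D4:**
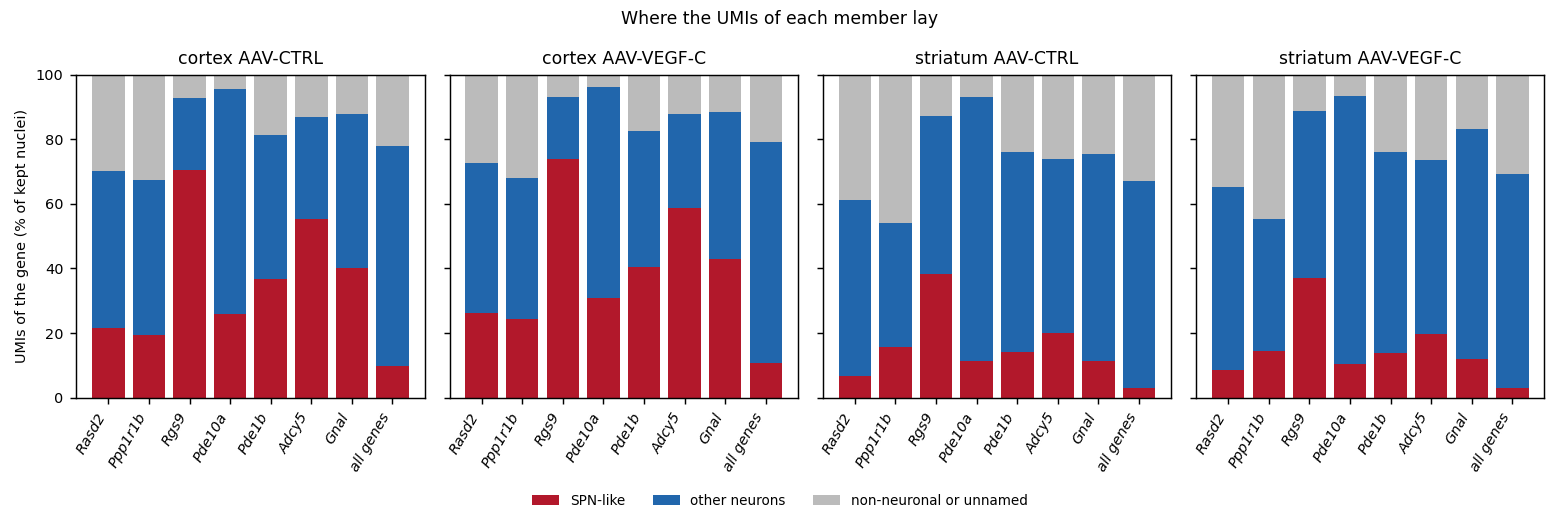
Share of the UMIs of each gene (percent of the UMIs in kept nuclei) in SPN-like nuclei, other neurons and the remaining nuclei, for each library and for all genes together. Rgs9 has the tallest SPN-like part in every library, from 37.0% to 73.8%, and Rasd2 the shortest of the 7 under the striatum label, at 6.71% and 8.61%.

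The genes were also seen together in single nuclei. An SPN-like nucleus held UMIs of 4.82, 5.27, 4.17 and 4.62 of the 7 genes on average, against 2.04, 2.17, 1.80 and 2.03 in other neurons. At 1000 UMIs per nucleus the means were 2.77, 2.98, 2.24 and 2.38 against 0.954, 0.954, 0.804 and 0.788. All 7 were present in 11.0%, 19.8%, 4.75% and 10.2% of SPN-like nuclei and in at most 0.0806% of other neurons. Thinning left out at most 3 SPN-like nuclei of a library and 247 to 733 other neurons.

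Rasd2 was the gene of the set that differed most between SPN-like nuclei with a Drd1 UMI and those with a Drd2 UMI. With nuclei that held a UMI of both left aside, its log2 ratio of Drd1 over Drd2 nuclei was -0.46 (-0.75 to -0.18), -0.29 (-0.48 to -0.10), -0.37 (-1.15 to 0.42) and -1.0 (-1.61 to -0.41), so the level was lower in Drd1 nuclei with an interval below 0 in 3 of 4 libraries. Pde10a was also lower in 3 of 4, by much less, at 0.02, -0.07, -0.18 and -0.19. Gnal was lower in 2 of 4, between -0.23 and -0.06. Ppp1r1b, Rgs9, Pde1b and Adcy5 had intervals that span 0 in all 4 libraries, with values between -0.22 and 0.05. Drd1 nuclei numbered 395, 582, 155 and 118 and Drd2 nuclei 383, 518, 96 and 91.

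The 2 SPN-like clusters differed in level throughout. The smaller cluster was lower for all 7 genes in all 4 libraries beyond counting error, with log2 ratios from -2.38 for Ppp1r1b to -0.56 for Gnal. The larger cluster held 86.9%, 89.7%, 78.0% and 82.0% of SPN-like nuclei. In it alone, the median ratio over other neurons was 2.44 and 2.49 under the striatum label. Clusters rest on expression, so levels between them are a description of the clustering. The Drd3-led cluster, singled out after its values were seen, held Rgs9 at 501 (448 to 559), Adcy5 at 487 (435 to 544) and Gnal at 580 (523 to 642) CPM, with Rasd2 at 44.8 (30.0 to 64.4) and Ppp1r1b at 58.7 (41.6 to 80.6).

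Between viruses, Rasd2 was higher in AAV-VEGF-C than in AAV-CTRL SPN-like nuclei under both region labels. The level went from 101 to 157 CPM in the libraries labelled cortex, a log2 ratio of 0.65 (0.50 to 0.79) or 1.56-fold, and from 45.4 to 72.1 CPM in those labelled striatum, 0.67 (0.27 to 1.07) or 1.59-fold. No other gene of the set passed 1.5-fold under either label. Rasd2 itself no longer passed 1.5-fold with neurons divided by Drd1 or Drd2 UMIs (log2 ratios of 0.55 and 0.46), under the cortex label in SPN-like nuclei with such a UMI (0.56), and under the striatum label after thinning to 1000 UMIs (0.49). Of the genes with enough UMIs, 3.39% passed 1.5-fold in either direction under the cortex label, 6.19% under the striatum label, and 0.210%, or 19 of 9029, passed it in the same direction under both. Rasd2 is 1 of 10 of these that were higher, and 1 of 8 with both intervals above 0. The selection of Rasd2 with earlier results of these libraries in view means that its place in that short list is not independent evidence. The 8 are Atp5k, Uqcr11, Mterf2, Rasd2, Mrpl52, Rps29, Ttr and mt-Nd5, named after their values were seen. Among them are subunits of the respiratory chain and ATP synthase, mitochondrial and cytosolic ribosomal proteins and the choroid plexus gene of transthyretin.

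The other genes moved less or in 1 region label. Ppp1r1b gave 0.47 (0.33 to 0.60) under the cortex label and -0.08 (-0.39 to 0.23) under the striatum label. Rgs9 gave 0.21 (0.16 to 0.27) and -0.01 (-0.13 to 0.11), and Pde1b 0.32 (0.23 to 0.41) and 0.22 (0.03 to 0.42). Adcy5 gave 0.11 (0.06 to 0.17) and 0.15 (0.04 to 0.27), Gnal 0.02 (-0.04 to 0.08) and 0.04 (-0.08 to 0.15), and Pde10a 0.06 (0.04 to 0.09) and -0.07 (-0.13 to -0.01). Adcy5, Pde1b and Rasd2 thus had both intervals above 0, while those of Gnal span 0 under both labels. Under the striatum label, Adcy5 turned to -0.08 (-0.19 to 0.03) with neurons divided by Drd1 or Drd2 UMIs and was 0.07 (-0.05 to 0.18) in the larger cluster, and Pde1b turned to -0.05 (-0.52 to 0.42) after thinning, as Pde10a did to 0.01 (-0.13 to 0.14). The median over the 7 genes was 0.21 and 0.04, against 0.01 and 0.02 over all genes.

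The higher Rasd2 level was not particular to SPN-like nuclei. In other neurons its log2 ratio was 0.41 (0.31 to 0.51) and 0.24 (0.10 to 0.38), in oligodendrocyte-like nuclei 0.29 (0.03 to 0.55) and 0.07 (-0.23 to 0.38), and in astrocyte-like nuclei 0.52 (0.28 to 0.76) and 0.24 (-0.14 to 0.62). Over all kept nuclei it was 0.48 (0.41 to 0.55) and 0.23 (0.12 to 0.33). With the oligodendrocyte-like level of each library subtracted it was 0.79 and 0.82 in SPN-like nuclei, and over 12 alternative settings it ran from 0.55 to 0.79 and from 0.46 to 0.82. In nuclei with a Drd1 UMI it was 0.68 (0.43 to 0.93) and 0.41 (-0.29 to 1.11), and in those with a Drd2 UMI 0.51 (0.28 to 0.74) and 1.03 (0.36 to 1.75). Whether the ratio differs between classes was not tested.

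Other measures moved with the virus label too. The mitochondrial share of UMIs in SPN-like nuclei was 0.538% and 0.591% in AAV-CTRL and 0.810% and 0.826% in AAV-VEGF-C libraries. The median depth was 4371 against 4547 UMIs under the cortex label and 4273 against 5319 under the striatum label. The part of either in the Rasd2 values was not tested. The virus cannot be told apart from the pool of mice and the preparation.

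**Figure D5:**
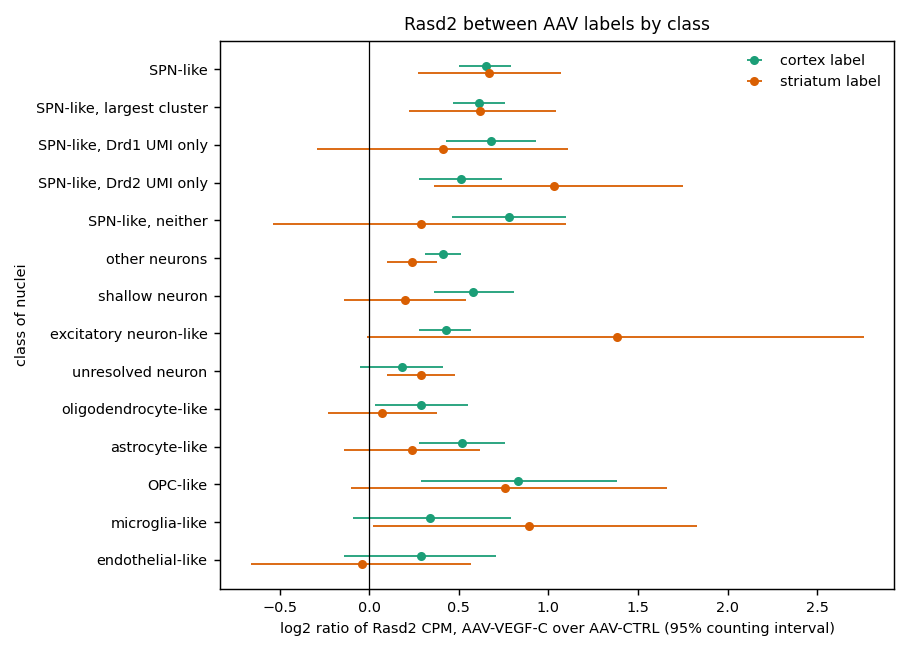
Log2 ratio of the Rasd2 level, AAV-VEGF-C over AAV-CTRL, in each class of nuclei under both region labels, with points for the ratio of CPM and bars for 95% counting intervals. SPN-like nuclei lie at 0.65 and 0.67, other neurons at 0.41 and 0.24 and oligodendrocyte-like nuclei at 0.29 and 0.07, and several bars of smaller classes span 0.

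Between region labels, all 7 genes were lower in SPN-like nuclei of the libraries labelled striatum, under both viruses. Rasd2 differed most, at -1.15 (-1.48 to -0.83) in AAV-CTRL and -1.13 (-1.40 to -0.86) in AAV-VEGF-C libraries, or 0.452-fold and 0.458-fold. It was the member past 1.5-fold lower under both viruses, as were 2.21% of all genes, while 3.40% were past it in the higher direction. Ppp1r1b gave -0.40 (-0.63 to -0.16) and -0.94 (-1.18 to -0.70), Rgs9 -0.35 (-0.44 to -0.25) and -0.57 (-0.67 to -0.48), and Pde10a -0.43 (-0.47 to -0.39) and -0.56 (-0.61 to -0.52). Pde1b was at -0.35 and -0.45, Adcy5 at -0.34 and -0.30, and Gnal, which differed least, at -0.12 (-0.22 to -0.03) and -0.10 (-0.19 to -0.01). The median over the 7 was -0.35 and -0.56, against 0.06 and 0.08 over all genes.

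Values outside the set moved with the region label as well. In oligodendrocyte-like nuclei Rasd2 went from 75.7 to 28.8 and from 92.5 to 30.4 CPM between region labels. After subtraction of that level, the Ppp1r1b ratio in AAV-CTRL libraries was 0.03, of the opposite sign. The 8 oligodendrocyte markers summed to 415 and 396 CPM in SPN-like nuclei under the cortex label and to 1104 and 917 under the striatum label, with all 8 seen in all 4 libraries. The larger cluster made up 86.9% and 89.7% of SPN-like nuclei under the cortex label and 78.0% and 82.0% under the striatum label. The part of these in the ratios was not tested.

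The rest of the pathway was read from a list of 75 receptors, G proteins, cyclases, phosphodiesterases, kinases, phosphatases and small G proteins, of which 74 were counted and 73 had enough UMIs. Of these, 14 (19.2%) were at least 2-fold higher in SPN-like nuclei than in other neurons in all 4 libraries, against the 1.90% of all genes, and 5 (6.85%) at least 2-fold lower, against 4.73%. The median log2 ratio of the list was 0.18, 0.19, 0.28 and 0.40. By role, 6 of 10 receptors were higher, 2 of 9 G protein subunits and 2 of 7 regulators of G protein signalling and their partners. So were 3 of 11 phosphodiesterases and 1 of 9 genes listed as protein kinase A and its anchors. The cyclases other than the member Adcy5 went the other way, with 0 of 7 higher and 3 lower, and 2 phosphodiesterases were lower. None of the 11 genes listed as phosphatases and phosphatase inhibitors, among them Cdk5 and Cdk5r1, passed the fold in either direction. Nor did any of the 9 listed as small G proteins and their regulators. The members Adcy5, Ppp1r1b and Rasd2 would fall under these roles and were higher, but members were kept out of the list and its counts.

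Among receptors the adenosine receptor gene Adora2a was highest by ratio, with a median log2 ratio of 4.68, followed by Gpr6 at 4.25 and Drd2 at 3.84, but these 3 are also markers that named the class, and 5 of the 14 are such markers and no finding. The G protein gamma subunit Gng7, a partner of the Gnal product in the striatum, was not a naming marker. It stood at 405, 396, 406 and 416 CPM in SPN-like nuclei against 35.8, 35.9, 26.9 and 28.6 in other neurons, a median of 3.68. Gnb5, which pairs with Rgs9, was at 171, 183, 156 and 158 against 82.2, 85.4, 68.0 and 68.7 CPM, a median of 1.15.

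Further regulators were higher in SPN-like nuclei. Rgs20 was at 407, 406, 415 and 317 CPM against 88.8, 82.5, 67.8 and 61.5, and Rgs2 at 51.6, 56.8, 47.8 and 59.4 against 24.3, 27.4, 23.1 and 24.8. Pde7b, a cAMP-specific phosphodiesterase, was at 1598, 1583, 1367 and 1259 CPM against 236, 225, 230 and 238, and the calcium-dependent Pde1c at 302, 276, 338 and 350 against 38.4, 35.0, 85.2 and 71.3. Prkar2b, a regulatory subunit of protein kinase A, gave a median log2 ratio of 1.38. Lower were the cyclases Adcy8 (median -3.93), Adcy6 (-2.09) and Adcy1 (-1.25) and the phosphodiesterase Pde3a (-2.16). In SPN-like nuclei Adcy6 stood at only 4.72, 3.46, 4.39 and 6.60 CPM and Pde3a at 3.15, 2.92, 9.27 and 2.75. Both had too few UMIs there to be compared between viruses or region labels, so their ratios are imprecise. Adcy8 was at 10.5, 7.58, 14.6 and 14.3 CPM in SPN-like nuclei against 133, 128, 228 and 213 in other neurons, so the SPN-like nuclei with the higher Adcy5 level had the lower level of this calcium-stimulated cyclase.

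Of 68 genes of the list with enough UMIs, 0 passed 1.5-fold between viruses in the same direction under both region labels, against 0.210% of all genes. Between region labels, 4 of 68 were past 1.5-fold higher under the striatum label with both viruses and 6 lower, against 3.40% and 2.21% of all genes. The values of the list between viruses are ratios of the same pairs of libraries as those of Rasd2, and no test sets Rasd2 against them.

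The genes most like the set across classes were found by Pearson's r over 69 pairs of class and library, among 15165 genes, with log2(CPM + 1) averaged over the 7. Among them were Smpd3 (r = 0.895), Cpne5 (0.886), Gnb5 (0.884) and Penk (0.854). For Rasd2 alone they were Hpca (0.862), Phyhip (0.859) and Cdk5r2 (0.857). Hpca encodes a neuronal calcium sensor and Cdk5r2 an activator of the kinase Cdk5. Hpca was at 206, 265, 94.2 and 103 CPM in SPN-like nuclei against 151, 164, 42.4 and 41.9 in other neurons, so its levels, like those of Rasd2, were lower under the striatum label in both. Pairs of 1 library share its depth and preparation, so these values are descriptions.

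Within the set, likeness was uneven. Rasd2 and Ppp1r1b were the most alike pair, with r = 0.85 over the 69 pairs of class and library, followed by Rgs9 and Pde1b at 0.78, Rasd2 and Pde1b at 0.73 and Rgs9 and Adcy5 at 0.69. Rasd2 and Pde10a were at 0.03, and Ppp1r1b and Pde10a at -0.06. Rasd2 and Ppp1r1b thus had alike patterns over these pairs, and the pattern of Pde10a, which was broad among neurons, was like neither. Both Rasd2 and Ppp1r1b were also lower under the striatum label in oligodendrocyte-like and microglia-like nuclei. The part of such differences between libraries in the r of 0.85 was not tested.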

How the data were processed

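Nuclei of 4 libraries of mouse brain tissue were sequenced by droplet-based single-nucleus RNA-seq, 1 library per group. UMI counts per gene and nucleus were deposited by the authors without normalization, made with Cell Ranger 5.0.1 per the file headers (5.1.1 in the submitters' processing notes, which also name mm10). Neither the annotation nor the handling of introns in counting is given in the sources used here. The libraries held 63165470, 78332657, 77253372 and 67773329 UMIs in 17168, 20370, 23724 and 17466 nuclei, the shallowest with 719 UMIs. Together these are 78728 nuclei, the number the paper gives as left after its filters, which included a minimum of 200 UMIs. The deposited counts thus cannot show how many nuclei those filters removed.

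The members, gene lists and markers were chosen with earlier results of these data known. Doublets were called per library with Scrublet (scanpy 1.11.5, expected rate 8%), which marked 4.49%, 5.95%, 7.95% and 4.31%. Called doublets and clusters with at least 30% of them were left out. Counts were scaled and log-transformed, and 5000 variable genes without the 7 members, 50 principal components, 15 neighbours and Leiden clustering (leidenalg 0.10.2, resolution 1.2) gave 75 clusters. A marker counted when at least 2-fold over the median cluster and seen in 10% of nuclei, and an SPN-like cluster needed at least 50% of the markers. Names were rebuilt here, and the scoring rule and doublet threshold were set after clusters had been seen. Low-depth neurons are 2 clusters with a median under 1500 UMIs.

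UMIs were summed per class and library and scaled to 1000000 (CPM). Levels have exact Poisson, shares Clopper-Pearson and ratios exact conditional binomial intervals, all at 95% and for counting error only. Genes needed at least 50 UMIs over both sums. The named genes are the 7 members, pathway genes past 2-fold in all 4 libraries (at most 3 per role), and the 5 and 3 genes most alike the set and Rasd2, among genes with at least 500 UMIs in classes of at least 100 nuclei, of which 1 is not reported here. Ratios and intervals were checked on counts simulated from the Poisson model that the intervals assume. The check thus could not show how far spread between nuclei would widen them. The 12 alternatives changed the SPN rule, clustering, doublets, depth, size factors and background, and 2 more the filter on genes.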

Additional observations from a re-analysis of the deposited data

Results flagged for a closer look

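Pde10a was singled out because its SPN-like level went in opposite directions between viruses under the region labels. The log2 ratio of AAV-VEGF-C over AAV-CTRL was 0.06 (0.04 to 0.09) under the cortex label and -0.07 (-0.13 to -0.01) under the striatum label. The opposite directions did not hold throughout: after thinning to 1000 UMIs the striatum-label value was 0.01 (-0.13 to 0.14), with neurons divided by Drd1 or Drd2 UMIs the cortex-label value was 0.00 (-0.02 to 0.03), and in SPN-like nuclei with a Drd1 UMI only it was -0.05 (-0.09 to -0.01). The difference between the labels was not tested, since each is 1 pair of libraries. In other neurons Pde10a gave -0.18 (-0.20 to -0.17) and -0.02 (-0.04 to 0.00), and in the larger SPN-like cluster 0.03 (0.00 to 0.06) and -0.10 (-0.16 to -0.04).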

How the results depend on the processing

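No paired analysis was possible because the labels give no replicate numbers and no group has more than 1 library. The region ratios of each virus are already taken within its pool of mice. No library was left out, and 12 alternatives to the processing were run. The ratio of every member over other neurons stayed above 0 in all 12, and all 7 members stayed lower under the striatum label except where stated. Dividing neurons by Drd1 or Drd2 UMIs alone gave medians over other neurons of 1.63, 1.76, 0.95 and 0.90 and shares of neuronal nuclei of 16.7%, 19.1%, 10.1% and 11.9%, a median of -0.14 between viruses under the striatum label and medians of -0.91 (AAV-CTRL) and -1.15 (AAV-VEGF-C) between region labels, with Adcy5 between viruses under the striatum label turning to -0.08. Requiring such a UMI within SPN-like clusters gave 2.65, 2.64, 2.39 and 2.49, shares of 8.72%, 10.3%, 2.56% and 2.63%, and -0.48 between region labels in AAV-VEGF-C libraries. Thinning to 1000 UMIs gave 2.26, 2.27, 1.95 and 1.92, 0.15 between viruses under the cortex label, and -0.50 and -0.67 between region labels. Under the striatum label it turned Pde10a between viruses to 0.01 (-0.13 to 0.14) and Pde1b to -0.05 (-0.52 to 0.42). Subtracting the oligodendrocyte-like level gave 3.56, 3.50, 2.70 and 2.83, and turned Ppp1r1b between region labels in AAV-CTRL libraries to 0.03. Size factors by the median of ratios gave -0.65 between region labels in AAV-VEGF-C libraries, where the median gene was 0.09 higher among genes with at least 50 UMIs in each sum (0.08 over all genes tested, which needed them over both sums). Keeping doublets gave shares of 14.0%, 15.1% and 5.10% in the first 3 libraries and a median of 2.50 in cortex AAV-VEGF-C. Nuclei of at least 1500 UMIs gave shares of 14.6%, 15.2%, 5.26% and 4.68%. Chosen after seeing the data, leaving out the low-depth neurons gave 16.2%, 16.7%, 5.67% and 5.32%, the larger SPN-like cluster alone 11.7%, 12.7%, 3.54% and 3.40% with medians of 2.44 and 2.49 under the striatum label, and the Drd3-led cluster counted as SPN-like 14.1%, 5.21% and 4.67% in cortex AAV-CTRL and both libraries labelled striatum. The cause of these shifts was not tested. Clustering with the members, or at a resolution of 2.0, moved none of the 56 results beyond its counting interval. Between viruses, the share of all genes past 1.5-fold went from 12.9% and 16.6% (at least 10 UMIs, cortex and striatum label) to 0.683% and 1.44% (at least 200 UMIs), and between region labels the share higher under both viruses from 5.65% to 2.13%. Rasd2 in striatum AAV-CTRL rests on 93 UMIs, which limits each ratio that uses it.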

Other observations

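Pde10a was above its SPN-like level in a small cluster with Prok2 and Vipr2 among its leading genes, genes known from the suprachiasmatic nucleus of the hypothalamus, which was noticed after its values were seen. The cluster held 51 nuclei, 24 in striatum AAV-CTRL and 27 in striatum AAV-VEGF-C, and 0 in both libraries labelled cortex. Its Pde10a level was 3915 (3474 to 4396) and 4347 (3966 to 4756) CPM, against 2515 (2447 to 2584) and 2392 (2322 to 2464) in SPN-like nuclei of the same libraries. Gnal was at 68.4 (22.2 to 160) and 54.8 (20.1 to 119) CPM there, from 5 and 6 UMIs.

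In the 2 low-depth neuronal clusters, Rasd2 was above its oligodendrocyte-like level in all 4 libraries, with log2 ratios between 0.51 and 0.89, as was Ppp1r1b, between 0.42 and 0.51. Rasd2 stood there at 108, 161, 49.2 and 56.3 CPM, against 101, 157, 45.4 and 72.1 in SPN-like nuclei. For Ppp1r1b the low-depth clusters held 155, 173, 31.2 and 34.6 CPM, against 125, 173, 95.2 and 90.2. These clusters held 9.97%, 9.84%, 9.68% and 10.7% of the Rasd2 UMIs and 4.26%, 3.93%, 4.16% and 4.71% of all UMIs. A UMI of Drd1 or Drd2 was seen in 9.61%, 10.2%, 4.85% and 4.58% of their nuclei, at median depths of 1437, 1403, 1168 and 1397 UMIs.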
